A study of Homo sapiens with 6 samples.

Results

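The Notch pathway and the enzymes that put sugars on its receptors were described in HCT116 cells, an established human colon cancer line, from 10 genes chosen by name: the receptors NOTCH1, NOTCH2 and NOTCH3, the ligands JAG1 and JAG2, the glycosyltransferases EOGT, POFUT1 and LFNG, the protease ADAM17 and the target gene HES1. The 10 genes were read by 23 probe sets annotated to a single gene, out of 22215 probe sets in all, and all 23 were fitted without a filter on dim signals. The choice was made with the comparison below already known: the large difference of EOGT led to it. The members' values are therefore given as a description, with counts of calls and no p-values. Each group had 3 arrays. The first carried an shRNA against NFX1-91, a splice form of the zinc finger protein NFX1, and the second carried a control shRNA against β-galactosidase, both delivered stably by the lentiviral vector FUGW into cells grown with serum. Every array thus came from infected cells, and the labels do not say whether the lines were clones or pools, or whether the 3 arrays came from separate cultures, so the spread behind every test is that of these arrays and may be technical.

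Notch receptors are cut and activated when a Jagged or Delta ligand on a neighbouring cell pulls on them. ADAM proteases and then γ-secretase release the receptor's intracellular part, which joins the DNA-binding protein RBPJ and Mastermind coactivators and turns on genes such as HES1. Sugars on the receptor's epidermal growth factor (EGF) repeats tune this step: POFUT1 adds fucose, Fringe enzymes such as LFNG extend it with N-acetylglucosamine, and EOGT adds N-acetylglucosamine at another site of the repeat. In the intestine, Notch activity is known to keep progenitor cells from becoming secretory cells.

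Promoter sequence is shown for the target gene HES1, whose promoter is a textbook site of RBPJ binding, and for the 2 ligands, which differed in opposite directions. Each line holds the 250 bases before the RefSeq start site in GRCh38.p14, read 5′ to 3′ on the gene's strand. Capitals mark TGGGAA, the core that RBPJ recognises, in the HES1 line and the GC box GGGCGG, on either strand (CCGCCC), in the JAG1 and JAG2 lines. HES1 lies at chr3:194135898-194136147 on the + strand, JAG1 at chr20:10674000-10674249 on the - strand and JAG2 at chr14:105168777-105169026 on the - strand.
HES1: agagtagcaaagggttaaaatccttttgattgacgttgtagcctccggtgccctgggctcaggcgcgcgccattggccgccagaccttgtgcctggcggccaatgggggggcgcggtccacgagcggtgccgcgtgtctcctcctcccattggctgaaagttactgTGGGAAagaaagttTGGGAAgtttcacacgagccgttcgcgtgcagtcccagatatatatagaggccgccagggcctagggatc
JAG1: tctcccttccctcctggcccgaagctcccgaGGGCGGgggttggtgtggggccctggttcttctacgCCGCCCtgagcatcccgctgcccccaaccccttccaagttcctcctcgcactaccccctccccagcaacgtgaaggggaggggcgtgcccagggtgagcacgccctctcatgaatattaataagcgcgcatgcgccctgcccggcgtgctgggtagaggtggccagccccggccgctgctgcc
JAG2: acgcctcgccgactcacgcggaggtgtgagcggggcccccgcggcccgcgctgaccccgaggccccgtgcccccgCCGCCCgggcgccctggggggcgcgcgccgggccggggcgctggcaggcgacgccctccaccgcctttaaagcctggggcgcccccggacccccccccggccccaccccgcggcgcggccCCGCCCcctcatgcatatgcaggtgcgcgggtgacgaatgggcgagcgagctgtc
The HES1 window held 2 matches to TGGGAA, starting 84 and 70 bases before the start site. The RefSeq promoter table held 10 promoters of 9 members. Among them 2 (HES1 and LFNG) had a match to TGGGAA or its reverse complement TTCCCA, against 20.8% of 35116 promoters of the same length. GC boxes were found in 8 of the 10, from 8 members, and in 42.6% of all promoters, with 2 each for JAG1 and JAG2. The E-box CACGTG, which reads the same on both strands, had 0 matches among the members and stood in 6.34% of all promoters. EOGT had no entry in that table.

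Signals are deposited intensities scaled to an array mean of 500. They do not share a scale between probe sets, so each is compared between groups only. Fold changes are NFX1-91 shRNA over β-galactosidase shRNA, taken as differences of log2(signal + 16), so that they understate changes of dim probe sets. A probe set is called when limma's adjusted p over all 22215 probe sets is under 0.05. By that rule 12.0% of all probe sets were called higher and 13.7% lower (25.7% in either direction). The shRNA's target NFX1 was read by 3 probe sets. The brightest, 202584_at, had signals of 124, 139 and 138 in NFX1-91 shRNA arrays and 159, 144 and 139 in control arrays (log2 fold change -0.13, SE 0.096, limma adjusted p = 0.400, exact two-sided permutation p = 0.2). The middle probe set, 202585_s_at, had a log2 fold change of -0.06 (SE 0.122, limma adjusted p = 0.775, exact permutation p = 0.5). The dimmest, 210268_at, fell to 8.87, 8.83 and 4.56 in NFX1-91 shRNA arrays, against 16.8, 17.7 and 24.4 in control arrays (log2 fold change -0.60, SE 0.143, limma adjusted p = 0.0137). Its exact permutation p was 0.1, the smallest that 3 against 3 arrays can give. All 3 NFX1-91 shRNA values of 210268_at lay below the offset of 16, and it stood at percentile 22.2 of brightness. Its log2 fold change ran from -1.32 to -0.23 over the alternative settings given below. The splice form that each probe set reads was not determined here. Arrays of 1 group correlated at 0.992 to 0.995 and arrays of different groups at 0.983 to 0.985.

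Of the 23 probe sets of the Notch members, 9 were called higher, 3 lower and 11 were not called. The calls higher belonged to EOGT, NOTCH2, NOTCH3, JAG1 and HES1 and the calls lower to JAG2 and to the other probe set of NOTCH3. For POFUT1, NOTCH1, LFNG and ADAM17 no probe set was called. The median log2 fold change was 0.15 over the 23 probe sets and 0.01 over all probe sets. All 3 NFX1-91 shRNA arrays lay above all control arrays for 9 of the 23, against 19.3% of all probe sets, and below them for 5, against 19.7%. The groups overlapped for the other 9, against 61.0%. Nothing is read from these counts, since the members were chosen on the same comparison.

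**Figure D1:**
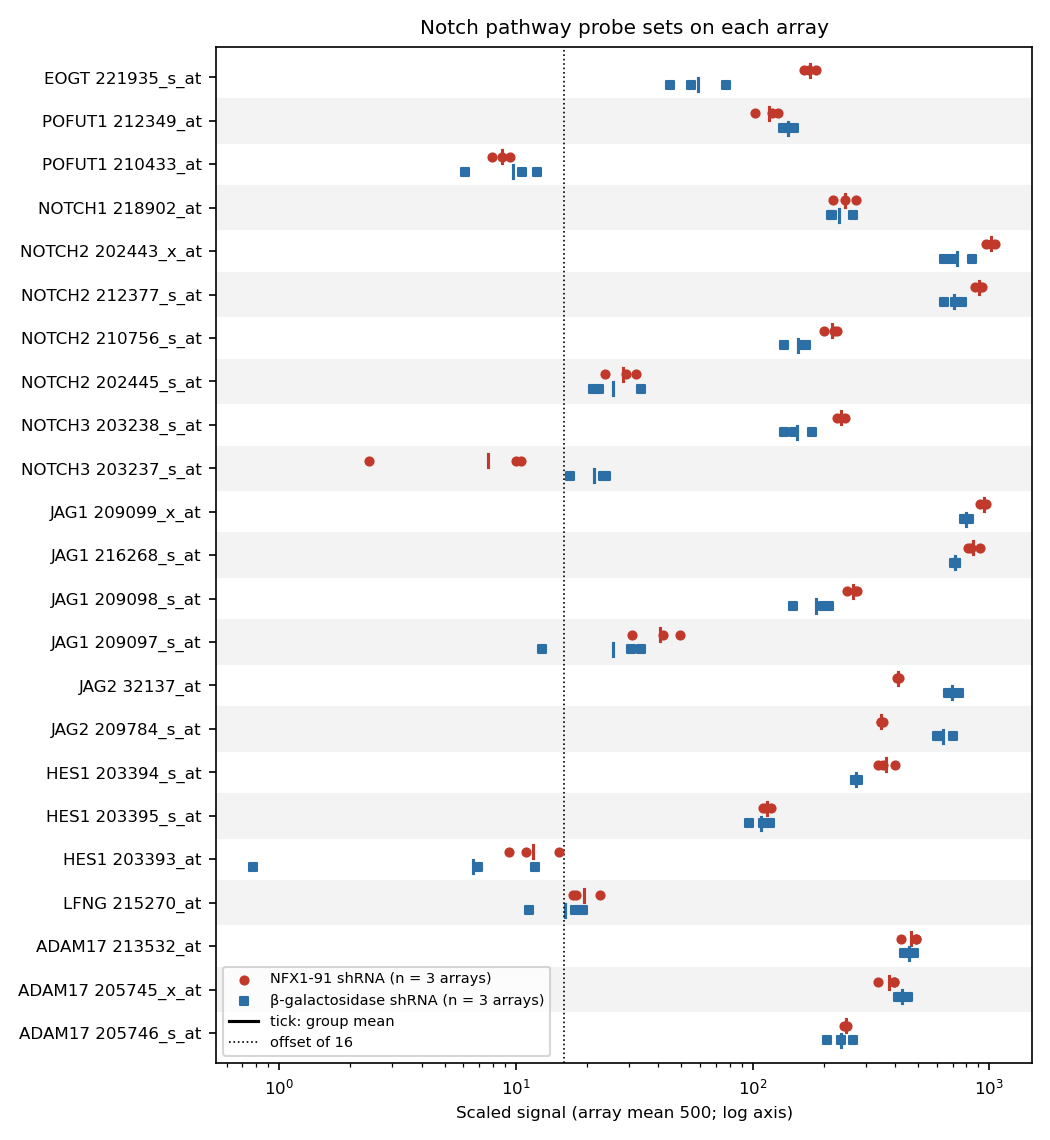
Scaled signal (log axis) of each of the 23 probe sets on the 3 NFX1-91 shRNA arrays (circles) and the 3 β-galactosidase shRNA arrays (squares), with a tick at each group mean and a dotted line at the offset of 16. EOGT and the NOTCH2, NOTCH3, JAG1 and HES1 probe sets called higher lie to the right in NFX1-91 shRNA arrays, both JAG2 probe sets lie to the left, and 5 probe sets have at least 1 array below the offset.

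Among the glycosyltransferases, EOGT differed most of all members, and the enzymes of the fucose branch were not called. EOGT, which adds N-acetylglucosamine to EGF repeats in the endoplasmic reticulum, was read by 221935_s_at with signals of 173, 164 and 186 in NFX1-91 shRNA arrays and 54.9, 77.1 and 44.7 in control arrays. Every NFX1-91 shRNA array was above every control array by a wide margin, with means of 174 ± 10.7 in NFX1-91 shRNA arrays and 58.9 ± 16.6 in control arrays (SD, n = 3 each), a 2.96-fold ratio. The log2 fold change was 1.37 (SE 0.156), rank 20 from the highest of all probe sets. EOGT has no second probe set in the table, so the difference rests on a single set of probes.

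POFUT1, the O-fucosyltransferase that Fringe enzymes depend on, had signals of 102, 121 and 128 in NFX1-91 shRNA arrays and 139, 135 and 150 in control arrays at its brighter probe set, 212349_at. The NFX1-91 shRNA arrays were all below the control arrays, yet the difference was not called (log2 fold change -0.25, SE 0.107). Its dim probe set 210433_at read 8.74, 9.47 and 7.97 in NFX1-91 shRNA arrays against 12.3, 6.13 and 10.7 in control arrays, all under the offset, and the groups overlapped. LFNG, which extends O-fucose, gave 18.0, 17.5 and 22.6 in NFX1-91 shRNA arrays and 11.4, 19.2 and 17.8 in control arrays at 215270_at, a probe set at percentile 26.9 of brightness. The groups overlapped (log2 fold change 0.15, 95% interval -0.18 to 0.47), so the values are compatible with any difference of LFNG within this interval.

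Of the receptors, NOTCH2 and NOTCH3 had probe sets called higher and NOTCH1 did not. NOTCH1, the receptor studied most in T cells and intestine, read 220, 246 and 273 in NFX1-91 shRNA arrays and 265, 217 and 214 in control arrays (218902_at), with a log2 fold change of 0.08 (95% interval -0.17 to 0.33). The groups overlapped. NOTCH2 at its brightest probe set 202443_x_at read 972, 1014 and 1056 in NFX1-91 shRNA arrays and 849, 645 and 695 in control arrays, without overlap and with a log2 fold change of 0.47 (SE 0.093). The probe sets 212377_s_at and 210756_s_at also had all NFX1-91 shRNA arrays above all control arrays. Their signals were 930, 911 and 868 in NFX1-91 shRNA arrays against 764, 713 and 645 in control arrays for 212377_s_at (log2 fold change 0.35, SE 0.0679). For 210756_s_at they were 220, 227 and 201 in NFX1-91 shRNA arrays against 136, 169 and 163 in control arrays (0.43, SE 0.101), a call that was lost without NFX1-91 shRNA array 2 (0.40). The dimmest NOTCH2 probe set, 202445_s_at, read 29.3, 32.2 and 23.8 in NFX1-91 shRNA arrays against 22.6, 21.2 and 33.7 in control arrays and was not called (0.10, SE 0.156), so all 4 NOTCH2 values were positive and 3 were called. The suffix _x_at marks probes that can match other sequences, and NOTCH2 has partial copies in the genome. The probe set of its copy NOTCH2NLA, 214722_at, looked up after the NOTCH2 values were seen, read 101, 106 and 95.1 in NFX1-91 shRNA arrays and 112, 130 and 92.1 in control arrays (log2 fold change -0.12, SE 0.127, limma adjusted p = 0.583).

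The 2 probe sets of NOTCH3 went opposite ways. At 203238_s_at the signals were 235, 227 and 246 in NFX1-91 shRNA arrays and 150, 135 and 178 in control arrays (log2 fold change 0.57, SE 0.105), without overlap and called higher. At 203237_s_at they were 10.6, 9.99 and 2.39 in NFX1-91 shRNA arrays against 24.0, 16.9 and 23.4 in control arrays, also without overlap and called lower (-0.68, SE 0.173). All 3 NFX1-91 shRNA values of this dim probe set lay below the offset, and it stood at percentile 23.5 of brightness, against 62.4 for 203238_s_at. Its log2 fold change was -1.55 with an offset of 1 and -0.25 with an offset of 64. The call was lost when NFX1-91 shRNA array 3 was left out (log2 fold change -0.50), control array 1 (-0.62) or control array 3 (-0.64). Why the NOTCH3 probe sets disagree was not tested, and no direction is given for the gene.

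The ligands JAG1 and JAG2, which both activate Notch receptors on neighbouring cells, differed in opposite directions. JAG2 was lower in NFX1-91 shRNA arrays at both probe sets. At 32137_at the signals were 409, 412 and 415 in NFX1-91 shRNA arrays and 742, 666 and 681 in control arrays, and at 209784_s_at they were 347, 354 and 348 in NFX1-91 shRNA arrays against 701, 598 and 612 in control arrays. The NFX1-91 shRNA arrays lay close together and far below the lowest control array at both. JAG2 averaged 350 ± 3.58 in NFX1-91 shRNA arrays and 637 ± 55.8 in control arrays at 209784_s_at (SD, n = 3 each), 1.82-fold lower, with a log2 fold change of -0.83 (SE 0.0715). At 32137_at it was 1.69-fold lower (-0.73, SE 0.0601).

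JAG1 was higher by a smaller amount. Its brightest probe set 209099_x_at read 917, 953 and 971 in NFX1-91 shRNA arrays and 821, 793 and 780 in control arrays (log2 fold change 0.24, SE 0.0489). At 216268_s_at the signals were 817, 834 and 917 in NFX1-91 shRNA arrays against 724, 720 and 706 in control arrays (0.25, SE 0.0572). At 209098_s_at they were 250, 277 and 271 in NFX1-91 shRNA arrays against 148, 198 and 211 in control arrays (0.50, SE 0.123). None of these 3 probe sets had overlapping groups and all 3 were called higher. The dim 209097_s_at read 41.9, 49.5 and 30.9 in NFX1-91 shRNA arrays against 12.9, 33.7 and 30.8 in control arrays and overlapped (0.47, SE 0.224), so the 4 JAG1 values shared a positive sign. The call of 216268_s_at was lost when limma was run without a variance trend, and that of 209098_s_at without NFX1-91 shRNA array 2 (0.47) or 3 (0.48).

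ADAM17, a cell-surface protease that can cut Notch receptors and sheds growth factors and cytokines, was not called at any of its 3 probe sets. The signals of 213532_at were 423, 489 and 488 in NFX1-91 shRNA arrays and 480, 452 and 436 in control arrays, with a log2 fold change of 0.03 (95% interval -0.14 to 0.20). At 205746_s_at the log2 fold change was 0.07 (-0.15 to 0.29), with overlapping groups. At 205745_x_at the NFX1-91 shRNA arrays read 340, 398 and 397, all below the control arrays with 455, 411 and 422 (-0.18, 95% interval -0.36 to 0.00). HES1, a repressor that is a direct target of Notch in many tissues, was called higher at 1 of 3 probe sets. At 203394_s_at it read 356, 338 and 401 in NFX1-91 shRNA arrays and 271, 271 and 279 in control arrays, without overlap (log2 fold change 0.39, SE 0.0779). At 203395_s_at the signals were 114, 111 and 120 in NFX1-91 shRNA arrays against 118, 111 and 96.4 in control arrays, and the groups overlapped (0.08, 95% interval -0.16 to 0.32). The dim 203393_at, with 11.0, 9.40 and 15.2 in NFX1-91 shRNA arrays against 6.89, 0.778 and 12.0 in control arrays, overlapped as well and lay below the offset on all 6 arrays (0.33, SE 0.192). The control value of 0.778 is the lower limit at which 411 values of that array stand. HES1 was thus called at 1 of 3 probe sets. The others had positive values but overlapping groups, so no difference was shown there.

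**Figure D2:**
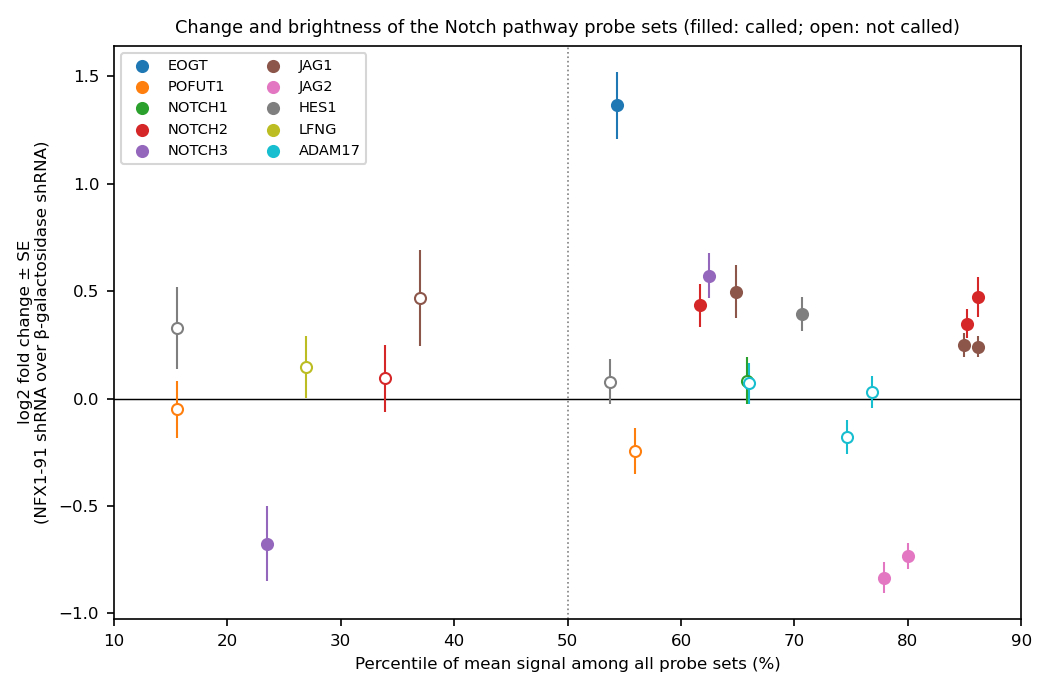
Log2 fold change with its SE (NFX1-91 shRNA over β-galactosidase shRNA, n = 3 arrays each) of the 23 probe sets against the percentile of their mean signal among all probe sets, filled where called and open where not. EOGT stands alone at 1.37, both JAG2 probe sets lie below -0.7 at high brightness, and of the 6 probe sets left of the dotted median line only 203237_s_at of NOTCH3 is filled.

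In the plot of change against brightness, of the 17 member probe sets at or above the median brightness, 11 were called, where 44.7% of all such probe sets were, and of the 6 below it 1 was called, where 6.64% were. Several probe sets of a gene shared their sign for NOTCH2, JAG1, JAG2, HES1 and POFUT1 and did not for NOTCH3 and ADAM17. These signs include those of uncalled probe sets, whose direction is uncertain.

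Among the other genes of the pathway, the γ-secretase subunits APH1A and PSENEN and the protease FURIN were lower. The protease ADAM10 was lower at its brightest probe set only. The receptors, ligands and target genes read outside the members gave no call, and most of them were dimmer than the median probe set. Of 76 genes listed, 54 had a probe set of their own in the table, and the brightest was used for each. Of these 54, 3 rose and 10 fell, with a median log2 fold change of 0.00, where over all genes 13.4% were called higher and 16.6% lower, with a median of 0.00. Over all 101 probe sets of these genes 6 were called higher and 14 lower. When the probe sets of a gene were averaged, 5 genes were called higher and 7 lower. The 22 genes without a probe set of their own were not analysed here.

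Among 7 other proteases of the receptor 0 rose, 5 fell and 2 did not pass (median log2 fold change -0.33). The shares over all genes, 13.4% higher and 16.6% lower, stand beside this count and those of the lists below. Only 1 of the 7 was dimmer than the median probe set, and 44.7% of all probe sets at or above the median were called. APH1A, a scaffold subunit of γ-secretase, fell to 264, 261 and 251 in NFX1-91 shRNA arrays, against 716, 742 and 831 in control arrays, 2.95-fold lower. Its log2 fold change was -1.50 (SE 0.0708, limma adjusted p = 4.37e-06), and its groups were far apart. PSENEN, the smallest γ-secretase subunit, fell to 282, 308 and 277 in NFX1-91 shRNA arrays, against 413, 599 and 606 in control arrays (log2 fold change -0.85, SE 0.136, limma adjusted p = 0.00195). FURIN, which cleaves the receptor on its way to the surface, fell to 71.8, 102 and 92.5 in NFX1-91 shRNA arrays, against 179, 130 and 158 in control arrays (-0.72, SE 0.147, limma adjusted p = 0.00707). ADAM10, the main protease of ligand-activated Notch, fell to 1459, 1426 and 1526 in NFX1-91 shRNA arrays, against 1638, 1776 and 1780 in control arrays (-0.23, SE 0.0492, limma adjusted p = 0.00795). The groups of all 3 were apart, but the other ADAM10 probe sets had log2 fold changes of 0.01 (214895_s_at) and 0.07 (202604_x_at), so for ADAM10 the fall was seen at 1 of 3 probe sets, and it did not pass without a variance trend. PSEN2, a catalytic subunit, fell past the threshold at its brightest probe set (log2 fold change -0.33, limma adjusted p = 0.0427), and its probe sets 204262_s_at (-0.22) and 204261_s_at (-0.07) did not pass. The PSEN2 call was lost under quantile normalization (limma adjusted p = 0.0561), median centring (0.0681) and the replicate block (0.0769), and without NFX1-91 shRNA array 1 (log2 fold change -0.29) or 2 (-0.30) or control array 1 (-0.34), 2 (-0.33) or 3 (-0.32). NCSTN, the substrate receptor of γ-secretase, had a log2 fold change of -0.06 (95% interval -0.23 to 0.10), and APH1B, the alternative to APH1A, one of 0.24 (-0.08 to 0.56). For APH1B all NFX1-91 shRNA arrays lay above all control arrays, yet the difference was not called.

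**Figure D3:**
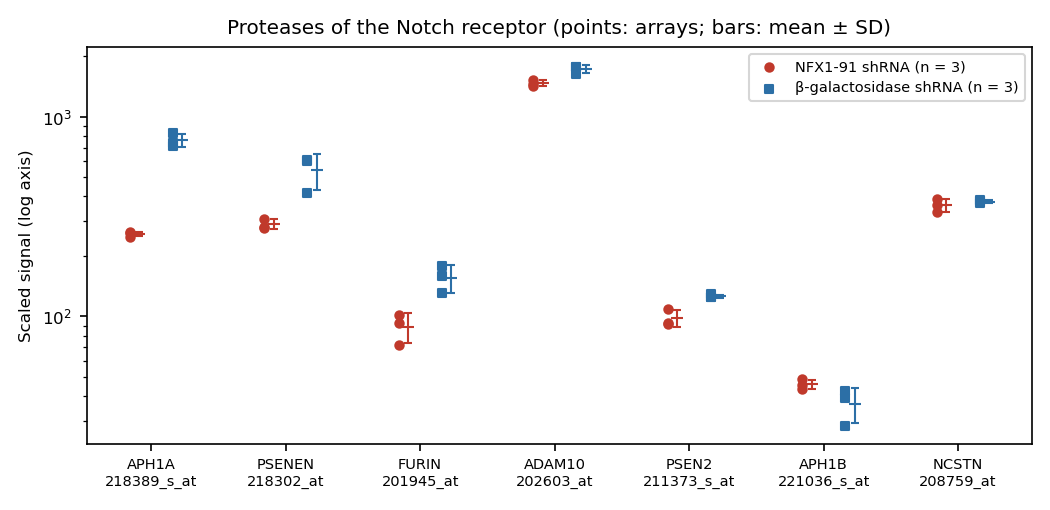
Scaled signal (log axis) of 7 proteases and protease subunits that act on Notch receptors, on the 3 NFX1-91 shRNA arrays (circles, left) and the 3 β-galactosidase shRNA arrays (squares, right), with the mean and SD beside the points. APH1A is lowest relative to its control arrays, at 258 ± 6.87 in NFX1-91 shRNA arrays against 763 ± 60.3 in control arrays (SD, n = 3 each), PSENEN, FURIN, ADAM10 and PSEN2 also lie lower, and NCSTN overlaps. APH1B lies higher without overlap but was not called.

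Of 14 nuclear partners 1 rose, 3 fell and 10 did not pass (median 0.05). MAML1, the Mastermind coactivator of the Notch complex, fell to 380, 452 and 520 in NFX1-91 shRNA arrays, against 770, 717 and 743 in control arrays (log2 fold change -0.71, SE 0.101, limma adjusted p = 0.00102). The corepressor CTBP1 fell at all 3 of its probe sets, by 0.54 at the brightest (limma adjusted p = 3.21e-05), by 0.71 at 203392_s_at and by 0.40 at 213980_s_at. The histone acetyltransferase CREBBP fell by 0.42 (limma adjusted p = 0.00924), at 1 of 2 probe sets. KAT2B, another acetyltransferase, rose to 105, 114 and 123 in NFX1-91 shRNA arrays, against 58.1, 61.3 and 80.0 in control arrays (0.66, SE 0.131, limma adjusted p = 0.00569). RBPJ itself had a log2 fold change of 0.04 (95% interval -0.10 to 0.17) at its brightest probe set and fell by 0.32 at 207785_s_at (limma adjusted p = 0.00707), so its probe sets disagreed. The corepressor TLE3 did not pass at its brightest probe set (0.21, limma adjusted p = 0.0594), which was called higher in 4 of 15 alternative settings. TLE3 rose at both others, by 0.36 and 0.62, though at neither without NFX1-91 shRNA array 2 (0.33 and 0.57).

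Of 8 trafficking and turnover genes FBXW7, the ubiquitin ligase subunit that marks the Notch intracellular part for degradation, rose to 212, 209 and 229 in NFX1-91 shRNA arrays, against 139, 129 and 131 in control arrays, and the other 7 did not pass. Its log2 fold change was 0.64 (SE 0.0835, limma adjusted p = 0.000640), and the list's median was 0.15. DTX3 (0.34, limma adjusted p = 0.136), AAK1 (-0.26, 0.154) and NEURL1 (0.31, 0.165) were the nearest to the threshold after it. With array weights DTX3 was called higher (0.45, limma adjusted p = 0.0322).

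Of 7 genes that make or carry the sugar donors 1 rose, 2 fell and 4 did not pass (median 0.04). SLC35A3, a Golgi transporter of UDP-N-acetylglucosamine, fell by 0.36 at its brighter probe set (limma adjusted p = 0.00756) and by 0.52 at 209865_at (limma adjusted p = 0.00291). FPGT, of the GDP-fucose salvage route, fell by 0.33 (limma adjusted p = 0.0191), a call that was lost without NFX1-91 shRNA array 1 (-0.30) or 3 (-0.32) and without control array 2 (-0.32) or 3 (-0.32). UAP1, which makes UDP-N-acetylglucosamine, rose by 0.18 (limma adjusted p = 0.0423), and its call was lost without a variance trend, with a replicate block (limma adjusted p = 0.0950) and without NFX1-91 shRNA array 1 (0.20), 2 (0.18) or 3 (0.15) or control array 2 (0.20) or 3 (0.14). GFUS, which makes GDP-fucose, had a log2 fold change of -0.10 (limma adjusted p = 0.176).

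The 5 other glycosylation enzymes of EGF repeats gave 0 calls by limma (median -0.06), with 2 at an unadjusted p under 0.05. B4GALT1, which adds galactose after Fringe, was nearest with -0.21 (limma adjusted p = 0.0899), followed by POFUT2 with 0.27 (0.140), MFNG with -0.20 (0.545) and RFNG with -0.06 (0.625). In 2 of 15 alternative settings B4GALT1 was called lower, and in 2 of 15 POFUT2 was called higher at this probe set, 209578_s_at. The dimmest POFUT2 probe set, 207448_at, was called higher on its own (0.46, limma adjusted p = 0.0472), a call lost in 8 of 14 alternative settings, among them those without NFX1-91 shRNA array 2 (0.37) or 3 (0.45) or control array 2 (0.40) or 3 (0.45). Of 8 other receptors and ligands listed, 5 had a probe set of their own, and the Delta ligands DLL1 and DLL4 did not. Of the 5 read, 0 passed (median 0.03), nor did any at an unadjusted p under 0.05. Among them 4 were dimmer than the median probe set, so small changes were not detectable. CNTN1 had a log2 fold change of 0.21 (limma adjusted p = 0.172), DLK2 one of -0.12 (0.515), DLK1 one of 0.07 (0.835) and NOTCH4 one of 0.03 (0.90). Of 8 other target and lineage genes 0 passed (median -0.07), 0 at an unadjusted p under 0.05, and all 8 were dimmer than the median probe set, so small changes were not detectable. ATOH1, the secretory lineage factor repressed by HES1, had signals of 20.8, 9.79 and 16.7 in NFX1-91 shRNA arrays and 21.9, 26.6 and 23.4 in control arrays (-0.35, SE 0.157, limma adjusted p = 0.156). The Hairy-related targets HEY1 (-0.13, 0.614) and HEY2 (-0.09, 0.678) and the mucin MUC2 (-0.16, 0.603) did not pass either. With array weights ATOH1 was called lower (-0.51, limma adjusted p = 0.0258).

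**Figure D4:**
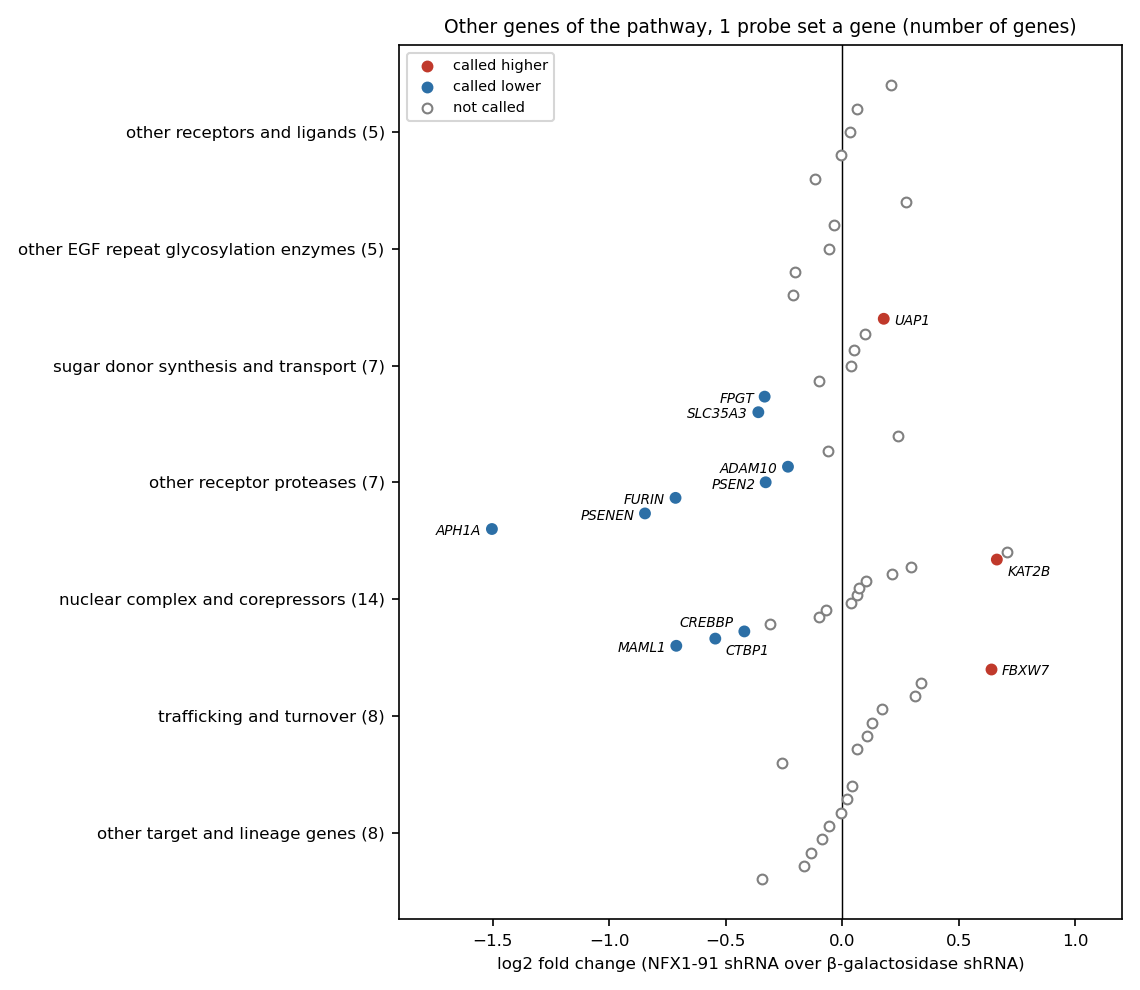
Log2 fold change (NFX1-91 shRNA over β-galactosidase shRNA) of 54 other genes of the Notch pathway in 7 lists, 1 probe set a gene, coloured where called and open where not. Of the 54 genes 10 were called lower, where 16.6% of all genes were, and 5 of the 10 were receptor proteases. Only 1 of the 7 proteases shown was dimmer than the median probe set. At or above that median 44.7% of all probe sets were called in either direction. ADAM10 was called at its brightest probe set only. APH1A lies farthest at -1.50, and the call of PSEN2 was lost in 8 of 15 alternative settings. The lists of receptors and ligands, glycosylation enzymes and target genes hold no called gene. Most receptors and ligands and all target genes shown were dimmer than the median probe set.

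The cells' epithelial markers were checked. EPCAM, KRT8, KRT18 and KRT19 stood at percentile 97.7 of brightness or above, while the intestinal markers LGALS4 and VIL1 were at percentile 13.4 or below and the intestinal transcription factor CDX2 was at percentile 47.2, above the offset on all 6 arrays. KRT18 and KRT8 rose and CDH1 and EPCAM fell past the threshold (log2 fold changes 0.54, 0.35, -0.50 and -0.15), though EPCAM did not pass without a variance trend. Of 8 fibroblast, 6 endothelial and 4 embryonic kidney markers 0 passed by limma at the brightest probe set (0, 2 and 0 at an unadjusted p under 0.05), though a second COL1A1 probe set was higher (log2 fold change 0.68, limma adjusted p = 0.00236). Of 6 blood cell markers HBB passed (0.45, limma adjusted p = 0.0470), a call lost in 8 of 15 alternative settings, among them those without NFX1-91 shRNA array 1 (0.41) or 3 (0.38) or control array 2 (0.43) or 3 (0.42). The list's summed signal was 157 to 170 in NFX1-91 shRNA arrays and 113 to 131 in control arrays, while the epithelial list summed to 27892 to 28066 in NFX1-91 shRNA arrays and 23195 to 24069 in control arrays. Such sums follow the brightest probe sets. In the epithelial list KRT18 averaged 10739 in NFX1-91 shRNA arrays and 7403 in control arrays, and KRT8 7065 and 5556, while CDH1 and EPCAM fell. At the brightest probe set, LAPTM5 averaged 52.9 in NFX1-91 shRNA arrays and 40.3 in control arrays, CD53 averaged 40.5 in NFX1-91 shRNA arrays and 30.6 in control arrays, and CD14 averaged 8.10 in NFX1-91 shRNA arrays and 2.94 in control arrays. These 3 had overlapping groups and did not pass, while the dimmer LAPTM5 probe set 201720_s_at, with all NFX1-91 shRNA arrays above all control arrays (means 15.2 in NFX1-91 shRNA arrays and 7.56 in control arrays), did not pass either (limma adjusted p = 0.0531). PTPRC (mean 10.3 in NFX1-91 shRNA arrays and 15.1 in control arrays) and CD3D (2.88 in NFX1-91 shRNA arrays and 1.76 in control arrays) averaged under the offset in both groups, as CD14 did. The part of these markers in the differences of the Notch members was not tested.

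The genes whose pattern over the 6 arrays was most like that of EOGT, by Pearson correlation of log2(signal + 16) among 6819 genes brighter than the median probe set, were ATXN3 and ERCC2 (r = 0.995 each), ALAD, ELOC (both 0.993) and OSTF1 (0.992). They were all higher in NFX1-91 shRNA arrays, with log2 fold changes of 0.36, 0.46, 0.79, 0.50 and 0.50. The 6 points share their 2 groups, so such a correlation carries the group difference itself, and 11 genes had r above 0.99.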

How the data were processed

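Biotin-labelled cRNA was made from total RNA and hybridised to Affymetrix arrays, per the labels' protocols. The authors deposited 1 linear intensity per probe set and array, for 22215 probe sets, with a sum of 1 over each array. The summary and scaling behind these values are not given in the sources used here. Each array holds 397 to 451 values at 1 repeated low value. Each array was multiplied to a mean of 500 and log2(signal + 16) was taken. Between 24.1% and 25.9% of an array's probe sets lay below 16, and the number of arrays limits the precision. The files give no detection calls.

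Gene names came from the array's platform annotation, in which 19064 probe sets had 1 gene, 1043 had several and 2108 had none listed. By gene identifier, 19052 of the 19064 matched RefSeq on GRCh38.p14, and 0 of them under another symbol. Promoters are RefSeq's on that build. Groups and array numbers were taken from the sample labels. One limma 3.58.1 fit in R 4.3.3 (lmFit, trended eBayes, without pairing, two-sided) covered all probe sets, with Benjamini-Hochberg adjustment and a threshold of 0.05, and was tested on simulated data. Figures used Python 3.11.15 and matplotlib 3.10.9. Genes outside the members were represented by their brightest probe set.

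The members, gene lists and tests were chosen with earlier results of these data known. Named genes were every probe set of the members and of NFX1, up to 4 genes of each other list with the smallest adjusted p, and the 5 genes most like EOGT; PSEN2, NCSTN, APH1B, RBPJ, TLE3, the markers and other probe sets of named genes were named after their values were seen. Alternatives were offsets of 1 and 64, quantile normalization, median centring, leaving out probe sets below the 40th percentile of brightness, no variance trend, a robust prior, array weights, each array left out, a replicate block and averaging over a gene's probe sets.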

Additional observations from a re-analysis of the deposited data

How the results depend on the processing

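Over 15 alternative settings, the 12 called probe sets of the members kept call and direction in 172 of 179 values, and the 12 called genes among those named from the other lists in 168 of 180. The 11 uncalled probe sets of the members did so in 154 of 160, and the 16 uncalled genes named from the other lists in 222 of 233. The 14 called probe sets named after their values were seen kept call and direction in 182 of 209. EOGT was called in 15 of 15, with a log2 fold change of 0.96 (offset of 64) to 1.58 (offset of 1). Without the probe sets below the 40th percentile, 0 of the 3 NFX1 probe sets were called, since the dimmest was then not fitted. The count of other pathway genes called higher, 3 in the report, was 5 in that setting, 7 with array weights and 5 when the probe sets of a gene were averaged. The count called lower, 10 in the report, was 10, 13 and 7 in the same settings. With array weights 3668 of all probe sets were called higher and 3982 lower. The cause of these shifts was not tested. Leaving out 1 array at a time gave 2 to 6 other pathway genes called higher, with 6 without control array 1, and 8 to 10 called lower. It gave 7 to 9 member probe sets called higher and 2 to 3 lower. Over all probe sets 1669 to 2761 were called higher, against 2656 with all arrays. The lowest count was that without NFX1-91 shRNA array 2. With 1 array left out, some uncalled probe sets changed sign without being called, among them those of MFNG (-0.20 with all arrays) and MUC2 (-0.16). The log2 fold changes ran between -0.021 and 0.103 for NOTCH4, -0.312 and 0.040 for MUC2, -0.318 and 0.029 for MFNG, -0.145 and 0.0069 for NFX1 202585_s_at and -0.079 and 0.160 for DLK1. Over all settings POFUT1 210433_at ran between -0.153 and 0.057, ADAM17 213532_at between -0.0044 and 0.096 and ADAM17 205746_s_at between -0.018 and 0.153, changing sign in 2 of 14, 3 of 15 and 1 of 15 settings. Of the genes called in the report, PSEN2 was lost in 8 of 15 settings and UAP1 in 7 of 15. Median centring moved the median log2 fold change of all probe sets to 0.04, against 0.01. The deviations of same-numbered arrays from their group means correlated at -0.06, 0.09 and -0.09, and not every array correlated best with its own number. With 3 arrays a group, such weak correlations cannot show whether same-numbered arrays were prepared together, so no conclusion on pairing is drawn. With a replicate block 2265 probe sets were called higher and 2649 lower, 9 and 3 of the members' and 2 and 9 of the other pathway genes.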
